A study of Rattus norvegicus with 5 samples.

Results

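Gfap, Vim and Nes encode glial intermediate filament proteins, and they were followed here through 5 probe sets out of 8740 on a rat oligonucleotide array (8799 with its control probe sets). The first pair, AF028784mRNA#1_s_at and AF028784cds#1_s_at, carries no symbol in the platform annotation, but both are named after the GenBank record of the rat Gfap gene. The others are X62952_at, annotated as Vim, and M34384_at and rc_AI030685_s_at, both annotated as Nes. No probe set is annotated with the symbol Gfap (0 of 8740), and no probe set listed with several symbols includes any of these genes. The set was chosen by the normalised intensity of AF028784mRNA#1_s_at on diabetic against normal arrays, which stood out in earlier results, so the values that follow describe that contrast for these probe sets and no test of them is given. Levels of the Gfap, Vim and Nes probe sets are not set against each other, since each binds its target with its own efficiency. The sums over marker lists given below have that limit and weigh their brightest probe sets most.

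Total RNA came from Müller cells isolated from the retinas of male Sprague-Dawley rats. The diabetic group comprised 1 pool of 12 rats that were made diabetic with streptozotocin, which kills pancreatic beta cells, were kept for 6 months and were given small amounts of insulin against wasting. That pool was run on 2 arrays, diabetic 1 and diabetic 2, the second labelled a technical replicate and entered in its array record as a second run. The normal group comprised 3 pools of 12 healthy rats each, on the arrays normal 1, normal 2 and normal 3. With a single diabetic pool, no spread between diabetic animals was measured, and an exact permutation test of 1 pool against 3 could not give a p below 0.25.

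Intermediate filaments are the rope-like part of the cytoskeleton. Müller cells, the radial glia that span the retina, hold vimentin in the healthy eye and little glial fibrillary acidic protein (GFAP), while astrocytes of the nerve fibre layer hold GFAP constitutively. A rise of GFAP in Müller cells is the most widely used sign of retinal gliosis, and nestin, a filament protein of neural progenitors that assembles together with vimentin, can reappear in reactive glia.

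The regulatory sequence next to each gene's start is shown because the probe sets of these related genes behaved differently in the comparison that follows. The windows, taken from RefSeq (assembly GRCr8), run from 250 bases before to 50 bases from the annotated start, and entries were found for all 3 genes. Capitals mark matches to any of 6 short motifs, searched on both strands. These were the TATA box as TATAAA, the CCAAT box, the GC box as GGGCGG, the AP-1 element as TGANTCA, and the palindrome bound by STAT factors, which is TTC and GAA with a spacer of any 3 or any 4 bases.
Gfap, chr10:88361612-88361911, minus strand: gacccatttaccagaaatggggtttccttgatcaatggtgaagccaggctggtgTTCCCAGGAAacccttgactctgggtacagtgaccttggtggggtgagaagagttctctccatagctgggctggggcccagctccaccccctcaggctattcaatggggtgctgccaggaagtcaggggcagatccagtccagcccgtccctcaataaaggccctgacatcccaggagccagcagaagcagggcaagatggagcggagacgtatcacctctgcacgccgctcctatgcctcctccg
Vim, chr17:81577011-81577310, plus strand: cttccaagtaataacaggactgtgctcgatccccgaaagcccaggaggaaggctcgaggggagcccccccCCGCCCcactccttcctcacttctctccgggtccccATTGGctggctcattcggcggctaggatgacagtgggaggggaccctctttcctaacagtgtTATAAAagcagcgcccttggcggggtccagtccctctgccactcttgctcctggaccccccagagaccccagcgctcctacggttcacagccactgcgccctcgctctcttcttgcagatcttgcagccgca
Nes, chr2:175736338-175736637, plus strand: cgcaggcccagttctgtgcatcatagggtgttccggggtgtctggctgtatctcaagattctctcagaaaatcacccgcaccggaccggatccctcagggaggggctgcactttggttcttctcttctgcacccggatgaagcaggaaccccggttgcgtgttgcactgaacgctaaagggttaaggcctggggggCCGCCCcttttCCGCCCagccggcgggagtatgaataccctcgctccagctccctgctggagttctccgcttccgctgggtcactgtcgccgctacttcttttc

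The Gfap window held 1 match, to the STAT palindrome with the spacer of 4 bases, which begins at position -196 from the start. That palindrome occurs in 7.28% of the 33469 windows of the same length, and the form with the spacer of 3 bases, absent from all 3 windows, in 8.87%. The Vim window held a TATA box, with a CCAAT box and a GC box on the minus strand, motifs found in 14.2%, 37.5% and 33.1% of windows. The Nes window held 2 GC boxes on the minus strand. The AP-1 element, found in 7.33% of windows, was in none of these 3. No motif match overlapped another. The G and C content was 58.7% for Gfap, 62.0% for Vim and 60.0% for Nes, against a median of 51.7% over all windows, and the windows held 6, 14 and 18 CpG dinucleotides in that order, against a median of 7. A match of letters describes the sequence only and shows no binding.

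The deposited values are linear intensities on no common scale, with medians of 27.9 to 91.3 per array. They were quantile normalised between arrays, raised to a floor of 20 where lower, and converted to log2, on which the floor is 4.32. All differences below are diabetic minus normal on that scale, with the 2 diabetic arrays averaged into 1 pool. Actin signal at the 3' end over that at the 5' end, which rises as RNA degrades, was 1.76 on diabetic 1 and 2.55 on diabetic 2, against 2.61 on normal 1, 1.52 on normal 2 and 1.46 on normal 3. Diabetic 2 and normal 3 shared a hybridisation day and a chip lot, normal 1 and normal 2 each had their own, and the record of diabetic 1 gave none. A fit with the day as a block reduces to diabetic 2 against normal 3. That difference is given for the tested probe sets of Gfap, Vim and Nes, and for a named list gene or list median where it turns the direction or moves the value by over 1.5 times. Müller cell markers were present. Glul, the glutamine synthetase of these glia, lay at 13.0 on both diabetic arrays, and at 12.9, 13.2 and 13.5 on the normal arrays, and the glutamate transporter Slc1a3 lay at 11.8 and 12.0, against 11.6, 11.7 and 11.9 (difference 0.16, SE 0.26, 0.047 on the shared day, while Glul was at -0.21, SE 0.33, and -0.56 there). Clu, encoding the secreted chaperone clusterin, lay above every normal array, at 13.53 and 13.42, against 12.66, 12.92 and 13.17 (difference 0.56, SE 0.30, with 0.25 on the shared day). Car2, a carbonic anhydrase gene, lay below every normal array, with a difference of -0.34 (SE 0.27), and the water channel gene Aqp4 overlapped, at -0.48 (SE 0.39) and -1.41 on the shared day. Of the 7 Müller cell markers tested, 2 lay above and 5 below normal, with a median difference of -0.21 (0.24 with the deposited values unscaled, where the median of all tested probe sets was 0.47, 0.080 without diabetic 2, and -0.42 on the shared day). Their summed normalised intensity was 35623 and 37566 on the diabetic arrays, against 30605, 36357 and 40691 on the normal arrays, and Rlbp1, another defining marker, had no probe set with its symbol.

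Gfap was higher on both diabetic arrays than on every normal array, on both of its probe sets. AF028784mRNA#1_s_at had deposited intensities of 4796 and 3819 on the diabetic arrays, against 452, 476 and 1361 on the normal arrays. After normalisation it stood at 11.97 and 11.81 on the diabetic arrays, against 9.78, 9.86 and 9.58 on normal 1, normal 2 and normal 3 (mean 9.74 ± 0.14, SD, n = 3). The diabetic arrays lay close together and far from a tight normal group, without overlap. The difference was 2.15 (SE 0.24, 1 diabetic pool and 3 normal pools), or 4.45 times normal, and it was the 13th largest increase among the 6118 probe sets bright enough to be tested. Each of the 6 pairings of a diabetic with a normal array gave between 1.95 and 2.39, and the pair of the shared day gave 2.23. Only 0.159 separated the diabetic arrays, less than for 76.6% of tested probe sets, and the normal arrays spanned 0.281, less than for 86.5%. Since this contrast was used to choose the probe set, its rank and these percentages are descriptive only.

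AF028784cds#1_s_at, named for the coding part of the same record, was less reproducible. Its deposited intensities were 1113 and 468 on the diabetic arrays, against 90.0, 132 and 209 on the normal arrays. It stood at 9.99 and 8.68 after normalisation on the diabetic arrays, against 7.16, 8.09 and 7.00 on the normal arrays (mean 7.42 ± 0.59, SD, n = 3). Diabetic 1 was the highest, and diabetic 2 lay only 0.59 above normal 2, the highest normal array, so the groups did not overlap but came near each other. The difference was 1.92 (SE 0.50), or 3.79 times normal, the 20th largest increase of the 6118. It was 1.27 with diabetic 2 alone, 2.57 with diabetic 1 alone and 1.68 between the arrays of the shared day. The repeat arrays differed by 1.31, a gap that only 4.77% of tested probe sets exceeded, against a median gap of 0.362. The probe sets of the pair share a gene and may share sequence, so they are not independent measurements of Gfap.

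A further probe set named after the same record, AF028784mRNA#2_at, was not counted among the 5 and also has no symbol. It was dim, with deposited intensities of 93.4 and 36.0 on the diabetic arrays, against 21.1, 7.50 and 17.9 on the normal arrays. On the log2 scale it stood at 6.45 and 4.80 on the diabetic arrays, against 4.79 on normal 1 and the floor on the other normal arrays. Diabetic 1 stood apart, whereas diabetic 2 lay 0.0099 above normal 1 and 0.48 above normal 3. Which transcript it reports is not stated in these sources.

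**Figure D1:**
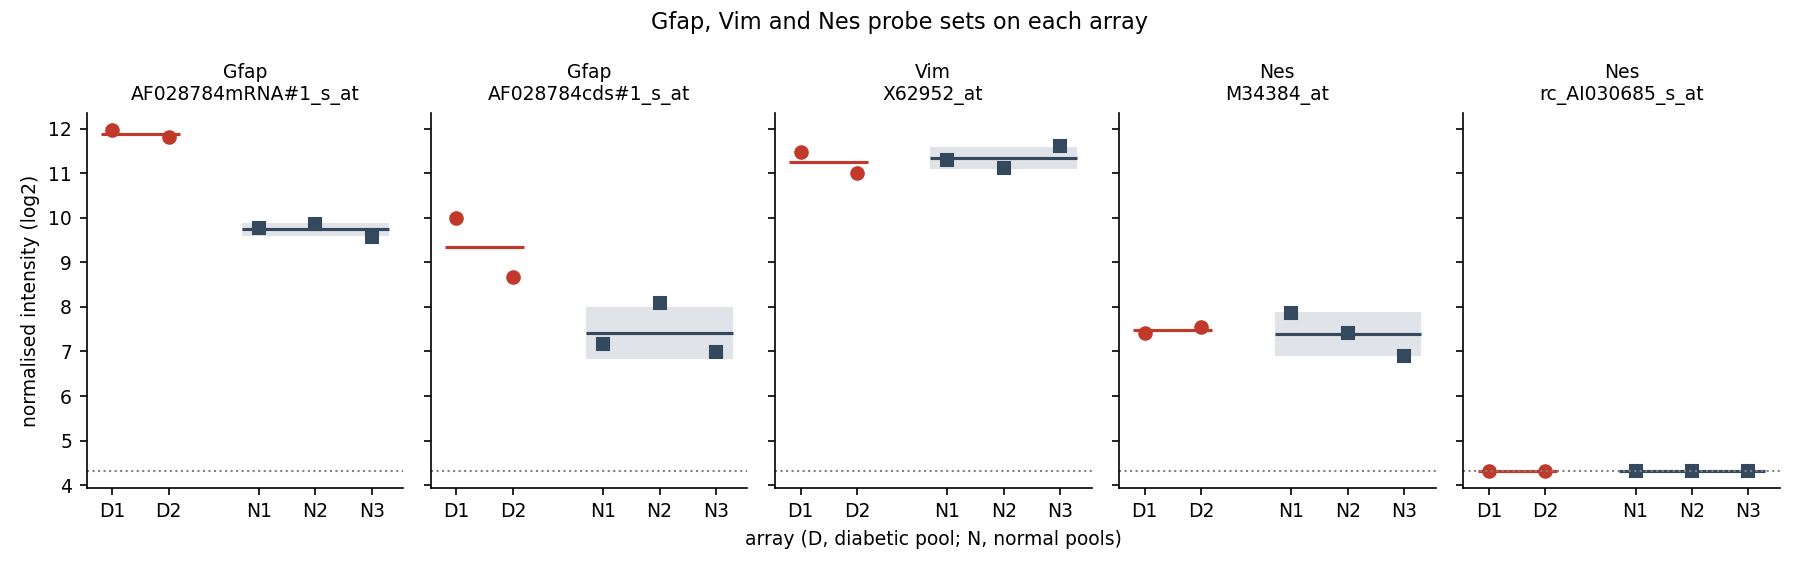
Normalised intensity (log2) of the 5 probe sets on the 2 arrays of the diabetic pool (D1, D2, red circles) and the 3 normal pools (N1 to N3, dark squares). Horizontal lines are group means, shading is the SD of the normal pools (n = 3) and the dotted line is the floor of 4.32; both Gfap probe sets separate the groups, whereas Vim and Nes do not, and heights of different panels are not comparable.

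Vim, the vimentin gene, did not separate the groups. Its probe set X62952_at had deposited intensities of 3274 and 2324 on the diabetic arrays, against 1325, 1179 and 5127 on the normal arrays. After normalisation it stood at 11.48 and 11.01 on the diabetic arrays, against 11.30, 11.11 and 11.61 on the normal arrays (mean 11.34 ± 0.26, SD, n = 3). Diabetic 2 was the lowest array and normal 3 the highest, with diabetic 1 between the normal arrays. The difference was -0.095 (SE 0.28), or 0.936 times normal, less than the SD of the normal pools. Its direction was not stable. It was -0.33 without diabetic 1, 0.14 without diabetic 2 and 0.04 without normal 3, and -0.60 between the arrays of the shared day.

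Nes, encoding nestin, did not separate the groups either. M34384_at had deposited intensities of 184 and 215 on the diabetic arrays, against 138, 81.2 and 194 on the normal arrays. It stood at 7.41 and 7.54 after normalisation on the diabetic arrays, against 7.87, 7.42 and 6.90 on the normal arrays (mean 7.40 ± 0.49, SD, n = 3). Both diabetic arrays lay inside the range of the normal arrays. The difference was 0.083 (SE 0.46), or 1.06 times normal, with -0.17 without normal 3 and 0.65 between the arrays of the shared day. The other Nes probe set, rc_AI030685_s_at, had deposited intensities of 2.20 and 4.80 on the diabetic arrays, against 11.3, 2.20 and 3.30 on the normal arrays. It was at the floor on all 5 arrays, so it had no measured difference and was left out of the fit, which held the remaining 4 of the 5 probe sets.

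Both Gfap probe sets thus had diabetic arrays wholly above the normal arrays, as had 9.53% of all tested probe sets, while 7.01% lay wholly below. The contrast had been used to choose AF028784mRNA#1_s_at, so nothing is read from that count. The separation of both was present with quantile normalisation, with each array scaled to a common median and with the deposited values unscaled. Unscaled, the median of all tested probe sets moved to 0.47, against -0.010 after quantile normalisation. Relative to that shift, AF028784mRNA#1_s_at at 2.69 (SE 1.48) and AF028784cds#1_s_at at 2.42 (SE 1.58) lay above it. M34384_at at 0.62 (SE 1.65) lay a little above it, and X62952_at at 0.46 (SE 1.51) lay at it. These SEs were far wider than those after quantile normalisation. On diabetic 1, normal 2 and normal 3, the 3 arrays whose actin ratio was low, a selection made after seeing the data, the differences were 2.25 and 2.45 for Gfap, 0.12 for Vim and 0.26 for Nes.

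**Figure D2:**
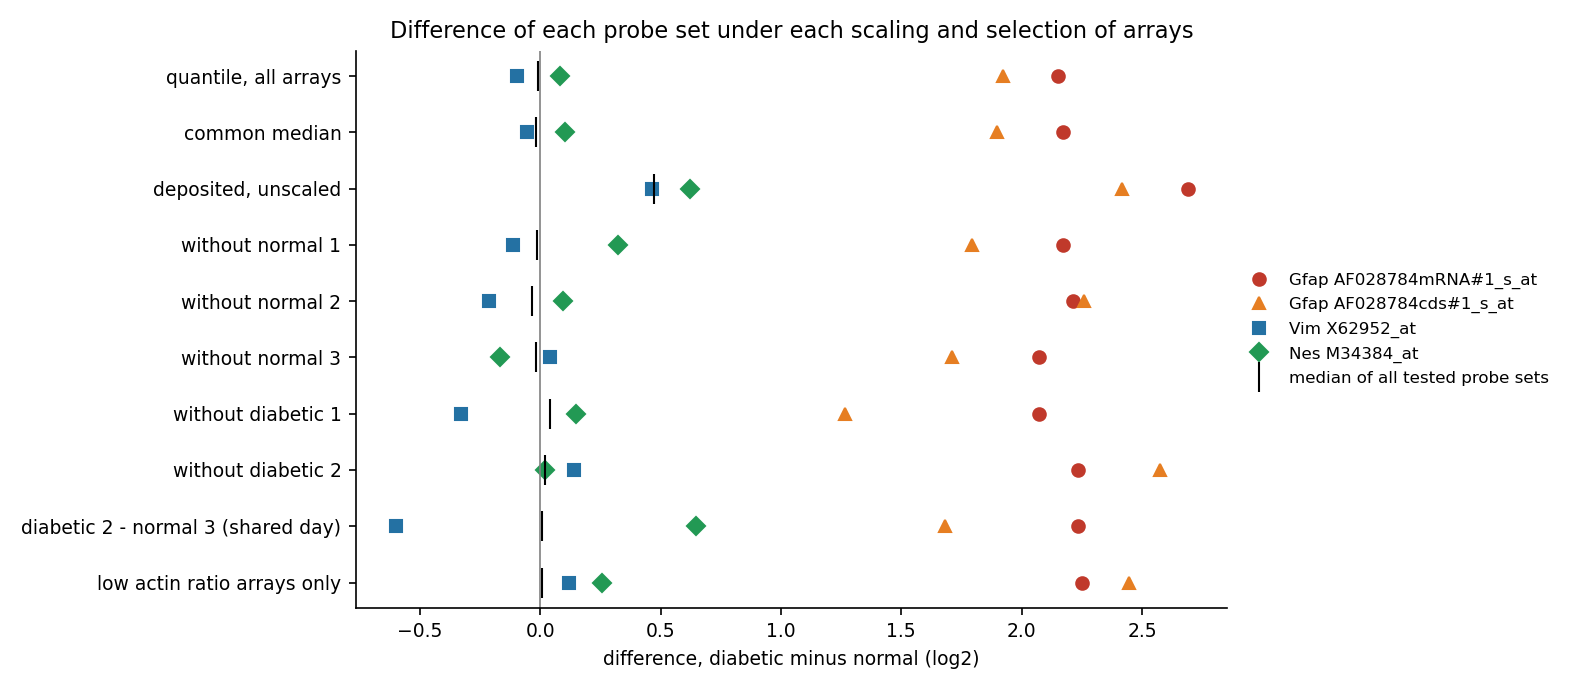
Log2 difference, diabetic minus normal, of the 4 tested probe sets (symbols) and the median of all tested probe sets (black ticks) under 10 combinations of scaling and arrays, which run down the axis. The Gfap symbols lie between 1.27 and 2.69 in every row, whereas Vim and Nes lie on both sides of zero.

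With limma, 0 of 6118 probe sets (0%) passed an adjusted p of 0.05 between the groups (lowest adjusted p = 0.495). Before adjustment, 73 probe sets (1.19%) lay above and 25 (0.409%) below normal at a p under 0.05. The gene lists below were drawn up from general knowledge with earlier results of these arrays known. Each gene was counted by its brightest tested probe set, and no gene of any list passed the adjusted threshold. The counts at an unadjusted p, and of probe sets whose groups did not overlap, are to be read against those percentages.

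Other intermediate filament genes showed little difference. Of 18 listed, 8 were tested, and 7 lay below and 1 above normal, with a median of -0.088 (0.40 unscaled, under the overall shift of 0.47, and 0.12 on the shared day, where the direction turned) and 0 at an unadjusted p under 0.05 (limma). Krt19, a keratin of simple epithelia, lay at 8.88 and 9.06 on the diabetic arrays, against 9.12, 9.64 and 9.96 on the normal arrays, a difference of -0.61 (SE 0.37), and was the only gene of the list without overlap. The neuronal filaments Prph, encoding peripherin, and Nefl, the light neurofilament subunit, differed by -0.28 (SE 0.54) and -0.19 (SE 0.61), but by 0.52 and 0.22 on the shared day. The nuclear lamin gene Lmna lay at 7.46 and 7.26 on the diabetic arrays, within the 7.13 to 7.79 of the normal arrays (difference -0.00078, SE 0.41, with 0.13 on the shared day). Des, encoding desmin, the muscle and pericyte relative of vimentin, was at the floor on all 5 arrays, as were Krt5 and the lens filament gene Bfsp1.

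Proteins that link, fold, phosphorylate or cleave intermediate filaments were spread around zero. Of 24 listed genes 17 were tested, 9 above and 8 below normal, with a median of 0.051 and 0 at an unadjusted p under 0.05 (limma). Casp6, a caspase that cleaves lamins and vimentin, lay at 6.29 and 4.86 on the diabetic arrays, against the floor, the floor and 4.66 on the normal arrays (difference 1.14, SE 0.47, but 0.20 on the shared day). The kinase genes Pak1 and Prkca differed by 0.68 (SE 0.57) and -0.82 (SE 0.73). On the shared day Pak1 turned to -0.30 and Prkca was at -1.74, and the list median was -0.091. Cryab, encoding alphaB-crystallin, a small heat shock protein that binds GFAP and vimentin filaments, lay at 10.37 and 10.35 on the diabetic arrays, against 10.59, 10.39 and 10.54 on the normal arrays. The diabetic arrays were just below all normal arrays (difference -0.15, SE 0.23).

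Genes of the signals known to drive or restrain Gfap transcription in glia lay on both sides of normal. Of 31 listed genes 25 were tested, 12 above and 13 below normal, with a median of -0.018 (0.49 unscaled, beside the overall shift of 0.47, and -0.40 on the shared day). At an unadjusted p under 0.05 (limma), 1 lay above and 2 below. Those 2 were Hes1 and Hes5, transcriptional repressors induced by Notch. Hes1 lay at 9.78 and 9.61 on the diabetic arrays, against 10.46, 10.59 and 10.48 on the normal arrays, a difference of -0.82 (SE 0.23). Hes5 lay at 8.99 and 8.45 on the diabetic arrays, against 9.43, 9.42 and 9.79 on the normal arrays, a difference of -0.83 (SE 0.27) and -1.34 on the shared day. Both calls depended on the scaling. In limma the unadjusted p was 0.013 for Hes1 and 0.026 for Hes5, against 0.134 and 0.143 with arrays scaled to a common median, and 0.828 and 0.839 unscaled, where the differences were -0.32 and -0.30 and no probe set on the array lay below normal at an unadjusted p under 0.05. Fgfr1, a receptor for fibroblast growth factors, lay at 8.47 and 7.83 on the diabetic arrays, against 7.45, 7.28 and 7.10 on the normal arrays (difference 0.87, SE 0.34). It was the 1 gene above, and its unadjusted p in limma was 0.0441, against 0.0692 with a common median and 0.396 unscaled. Stat3, the transcription factor through which interleukin 6 family cytokines induce Gfap, overlapped between groups, at 7.58 and 5.72 on the diabetic arrays, against 6.28, 5.24 and 5.75 on the normal arrays (difference 0.89, SE 0.57, but -0.03 on the shared day). Without overlap, 4 of the 25 lay above and 5 below normal, against 9.53% and 7.01% of all tested probe sets.

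Other genes of reactive glia lay higher, as was already known for several of them on these arrays when the list was drawn up. Of 20 listed genes 14 were tested, 12 above and 2 below normal, with a median of 1.30 against -0.010 for all tested probe sets. Of these, 11 lay wholly above normal and 8 had an unadjusted p under 0.05 (limma), with 0 after adjustment. Over all tested probe sets, 9.53% lay wholly above normal and 1.19% lay above it at that unadjusted p. Serpina3n, encoding a secreted serine protease inhibitor, lay at 9.14 and 9.29 on the diabetic arrays, against 6.74, 7.03 and 6.66 on the normal arrays. The transcription factor gene Cebpd lay at 10.15 and 10.39 on the diabetic arrays, against 8.31, 8.63 and 8.01 on the normal arrays. Cp, encoding the ferroxidase ceruloplasmin, lay at 10.52 and 10.68 on the diabetic arrays, against 9.22, 8.75 and 8.76 on the normal arrays. The differences of Serpina3n, Cebpd and Cp were 2.41 (SE 0.35), 1.96 (SE 0.33) and 1.69 (SE 0.30). With arrays scaled to a common median they were 2.35, 1.89 and 1.69. Unscaled, the differences of these 3 genes were 2.87, 2.41 and 2.21, and their unadjusted p in limma was 0.0817, 0.111 and 0.138. The list also held genes without a separation, as Vim and Nes were without one. These 3 were S100b, encoding a glial calcium-binding protein, at 0.20 (SE 0.35), Cd9, a tetraspanin gene, at -0.17 (SE 0.36), and Cd44, encoding a hyaluronan receptor, at -0.10 (SE 0.29), with -0.49 for Cd9 and -0.72 for Cd44 on the shared day. They are named after their values were seen.

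**Figure D3:**
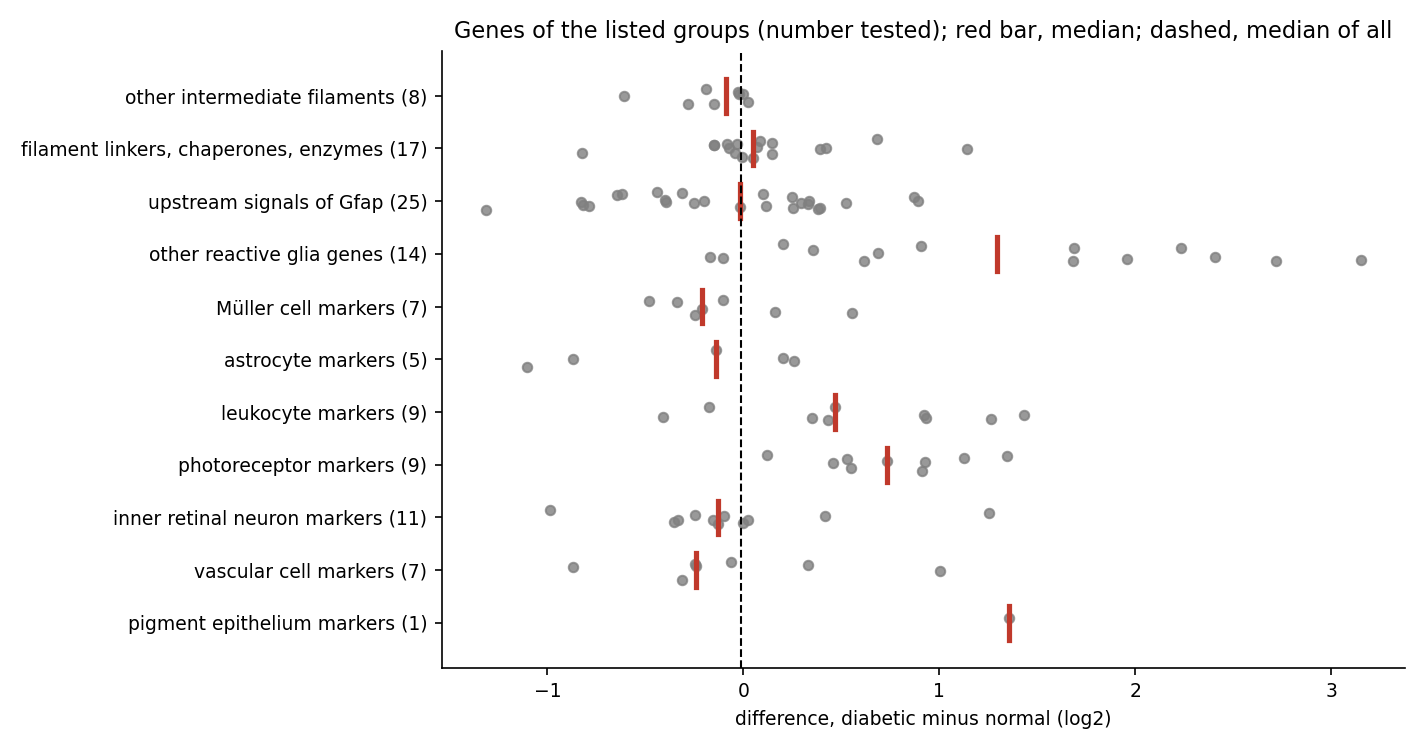
Log2 difference, diabetic minus normal, of each tested gene (grey points) of the 11 lists, with the number of genes tested in parentheses, the list's median (red bar) and the median of all tested probe sets (dashed line, -0.010). Reactive glia genes have a median of 1.30, while other intermediate filament genes gather near zero.

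The probe sets with 1 symbol that followed AF028784mRNA#1_s_at most closely over the 5 arrays were ranked by Pearson's r among 2222 with a range of at least 1 on the log2 scale. Since each array weighs equally and 2 of the 5 share a pool, r describes these arrays only. Serpina3n came first (r = 0.995), then Scn7a, a sodium channel gene (0.994), Sst, encoding somatostatin (0.992), the chemokine gene Cxcl13 (0.991), C1s, a protease of the complement cascade (0.991), and the central complement gene C3 on X52477_at (0.990). They were followed by Mvp, encoding the major vault protein (0.989), Nos2, the inducible nitric oxide synthase gene (0.988), Lig4, a DNA ligase gene (0.987), and Cebpd (0.985). Their differences ran from 0.84 (SE 0.43) for Lig4 to 2.83 (SE 0.48) for Nos2, apart from Scn7a, which was at the floor on all 3 normal arrays and was at least 12.8-fold higher on the diabetic arrays. Sst and Cxcl13 were each at the floor on normal 3. C3 is represented in the reactive glia list by another, brighter probe set, with a difference of 1.68 (SE 0.73) against 1.87 (SE 0.36) here. On the shared day that brighter probe set was at 0.89. For Nos2, another tested probe set, AF006619_s_at, was dim and showed no such rise. Its means were 4.82 on the diabetic and 4.80 on the normal arrays, a difference of 0.028 (SE 0.49).

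**Figure D4:**
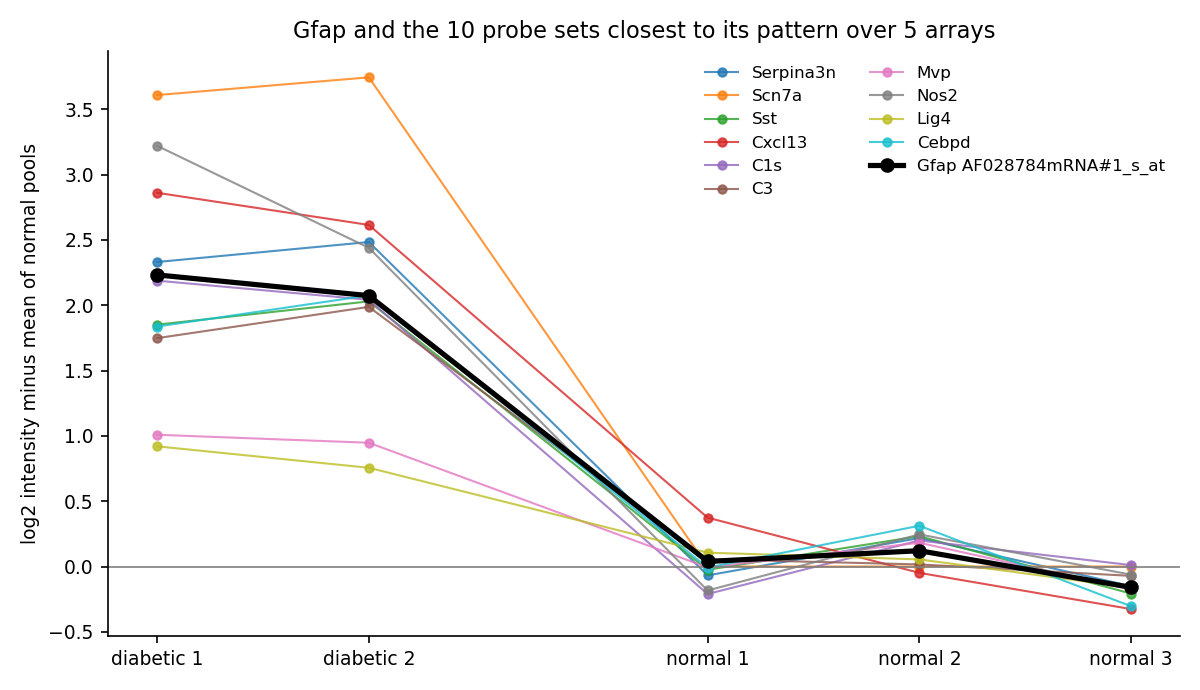
Log2 intensity minus the mean of the normal pools on each of the 5 arrays, diabetic arrays at the left, for AF028784mRNA#1_s_at of Gfap (thick black line) and the 10 probe sets most correlated with it (coloured lines). All 11 lines are high on both diabetic arrays and near zero on the normal arrays, which is what the ranking selects for.

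In RNA of a whole preparation, more cells of a type and more RNA per cell cannot be told apart, and Gfap is also made by retinal astrocytes. Of 8 astrocyte markers 5 were tested, 2 above and 3 below normal (median -0.14, with 0.35 unscaled, 0.16 without diabetic 1, 0.050 without normal 3 and 0.18 on the shared day), and their summed normalised intensity, over the 6 on the array, was 2294 and 2459.9 on the diabetic arrays, against 2987, 1918 and 2668 on the normal arrays. Most of that sum came from S100b, which is also in the reactive glia list. It lay at 10.72 and 10.69 on the diabetic arrays, against 10.89, 10.11 and 10.51 on the normal arrays. Gja1 was at the floor on all arrays, and Pax2, the defining transcription factor gene of retinal astrocytes, had no probe set with its symbol. Agt, encoding angiotensinogen, lay at 8.34 and 8.30 on the diabetic arrays, against 9.25, 8.80 and 9.52 on the normal arrays, and Pdgfra, a growth factor receptor gene, at 7.64 and 8.25, against 8.01, 7.78 and 8.46. Their differences were -0.87 (SE 0.35) and -0.14 (SE 0.37), with -0.21 for Pdgfra on the shared day. Slc1a2, a glutamate transporter gene, was at the floor on diabetic 1 and at 6.70 on diabetic 2, against 7.25, 6.41 and 6.17 on the normal arrays, so that its difference of -1.10 (SE 0.57) turned to 0.53 on the shared day. The other pair tested lay above normal, S100b at 0.20 (SE 0.35) and Aldh1l1, encoding a folate enzyme of astrocytes, at 0.26 (SE 0.52), with 0.92 for Aldh1l1 on the shared day.

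Markers of leukocytes and photoreceptors lay above normal in the median, as Gfap did, and their part in its difference was not tested. Counts of markers wholly above normal stand beside 9.53% of all tested probe sets. Of 16 leukocyte markers 9 were tested, 7 above and 2 below normal (median 0.47, with 0.96 unscaled, 0.72 without diabetic 1 and 0.76 on the shared day), with 6 wholly above, and their sum over 11 genes was 2469.8 and 2689.8 on the diabetic arrays, against 1753, 2179 and 1877 on the normal arrays. Coro1a, an actin-binding protein gene of leukocytes, lay at 6.23 and 5.68 on the diabetic arrays, against the floor, the floor and 4.92 on the normal arrays. Its difference was 1.43 (SE 0.51, limma unadjusted p = 0.0346, and 0.105 unscaled), with 0.76 on the shared day. With arrays scaled to a common median Coro1a differed by 1.47. Ctss, a lysosomal protease gene, and Aif1, a microglia and macrophage gene, differed by 0.43 (SE 0.26) and 0.93 (SE 0.58), both without overlap. Most of the leukocyte sum came from Ctss, at 10.41 and 10.60 on the diabetic arrays, against 9.90, 10.30 and 10.02 on the normal arrays. The 2 leukocyte markers below normal were Cx3cr1, at -0.41 (SE 0.46), and C1qc, at -0.18 (SE 0.32) and 0.037 on the shared day. Both overlapped between groups. All 9 tested of 18 photoreceptor markers lay above normal (median 0.73, with 0.44 without normal 3, 1.36 on the shared day and 1.26 unscaled), with 5 wholly above and Arr3 at the floor on all arrays. Their sum over 10 genes was 15189 and 15642 on the diabetic arrays, against 12216, 11192 and 5370.5 on the normal arrays, of which normal 3 was the lowest. Opn1sw, the short-wave cone opsin gene, lay at 9.17 and 8.79 on the diabetic arrays, against 8.19, 7.17 and 7.54 on the normal arrays, a difference of 1.35 (SE 0.45, limma unadjusted p = 0.0275, and 0.237 unscaled). With arrays scaled to a common median Opn1sw differed by 1.35. The rod genes Cnga1, a channel subunit, and Sag, encoding arrestin, differed by 0.91 (SE 0.47) and 1.12 (SE 0.59), with 1.97 and 2.04 on the shared day, on which the normal array was the low one. Of the pigment epithelium markers only Ttr was tested (difference 1.35, SE 0.61, with 2.25 on the shared day and 0.97 without normal 3), and Rpe65 was at the floor on all arrays. Vascular markers (2 of 7 tested above normal, median -0.24) and inner retinal neuron markers (3 of 11 above, median -0.13) lay slightly below normal in the median, though unscaled these medians were 0.33 and 0.42, under the overall shift of 0.47, on the shared day 0.24 and 0.22, and without single arrays they turned to 0.062 (vascular, normal 1) and to 0.062, 0.027 and 0.18 (neuronal, diabetic 1, diabetic 2 and normal 2). Of the vascular markers, the pericyte genes Pdgfrb and Cspg4 differed by -0.87 (SE 0.45) and 1.01 (SE 0.70), and the endothelial receptor gene Flt1 by -0.25 (SE 0.39), with -1.41, 0.30 and 0.081 on the shared day. Of the neuronal ones, the glycine transporter gene Slc6a9 differed by 1.25 (SE 0.86), the ganglion cell genes Thy1 by 0.42 (SE 0.40) and Sncg by -0.98 (SE 1.24). On the shared day Slc6a9 was at 2.03, and Sncg was at the floor on both arrays. The sum of the vascular markers was 2516 and 3013 on the diabetic arrays, against 3474, 2580.5 and 2726 on the normal arrays, and that of the neuronal markers 1847 and 1928, against 1307, 2474 and 1613. Most of the vascular sum came from Kdr, at 10.98 and 11.32 on the diabetic arrays, against 11.46, 11.01 and 11.17 on the normal arrays. Kdr differed by -0.063 (SE 0.27), with 0.15 on the shared day. No other tested vascular marker exceeded 7.48 on any array.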

How the data were processed

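Per the file headers, RG_U34A arrays were used. The authors deposited 1 intensity on a linear scale for each probe set on each array. How it was summarised and scaled, and with what software, is not given in the sources used here. Because the 2% trimmed means of the arrays differed by up to 3.52 times, the values were quantile normalised, floored at the 20th percentile or 20, whichever was higher, and put on the log2 scale. Then 59 control probe sets were removed, and the dimmest 30% by mean of the group means, which left 6118. limma 3.58.1 in R 4.3.3 (lmFit, eBayes with trend) compared 1 diabetic pool, the mean of 2 arrays, with 3 normal pools, two-sided, adjusted over all 6118 after Benjamini and Hochberg. There were 2 residual and 3.54 prior degrees of freedom, and all spread came from the normal pools. The step was tested on simulated data with independent noise of equal variance in both groups. The diabetic value here is the mean of 2 arrays of 1 pool, so that says nothing about its spread. Alternatives were 2 other scalings, 2 other floors, 2 other filters, eBayes without trend, 5 arrays as separate samples, leaving out each array, and subsets of arrays by day or actin ratio. Of 8740 probe sets, 7006 had 1 symbol, 308 several and 1426 none. The genes and lists were chosen with earlier results of these data known. Named genes were the 5 probe sets, the top 3 of each list by absolute moderated statistic, 11 genes reported where measured (among them Glul, Slc1a3, Stat3, Des and Lmna) and the 10 probe sets closest in pattern. A few further list members were named after their values were seen. Figures were drawn with matplotlib 3.10.9.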

Additional observations from a re-analysis of the deposited data

How the results depend on the processing

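Over the 15 alternatives, both Gfap probe sets lay above normal in each. Leaving out single arrays gave 2.07 to 2.23 for AF028784mRNA#1_s_at, 1.27 to 2.57 for AF028784cds#1_s_at, -0.33 to 0.14 for X62952_at of Vim and -0.17 to 0.32 for M34384_at of Nes. For the lists it gave medians of -0.19 to -0.0070 for other intermediate filaments, -0.084 to 0.056 for linkers and enzymes, -0.22 to -0.015 for upstream signals and 1.03 to 1.40 for reactive glia. The counts were then 47 to 152 above and 6 to 150 below normal at an unadjusted p under 0.05, and 842 to 1425 wholly above and 746 to 1347 wholly below, since fewer arrays overlap less often. Unscaled, the differences were 2.69 for AF028784mRNA#1_s_at, 0.46 for Vim and 0.62 for Nes, the list medians 0.40 (filaments), 0.53 (linkers and enzymes), 0.49 (upstream) and 1.77 (reactive glia), and the counts 34 above and 0 below at an unadjusted p, with 13 wholly below, all beside an overall shift of 0.47. Between the arrays of the shared day, Vim was at -0.60 and Nes at 0.65, and the medians of filaments, linkers, upstream signals and reactive glia at 0.12, -0.091, -0.40 and 1.02. On the 3 arrays whose actin ratio was low, chosen after seeing the data, the medians were -0.39 (filaments), -0.13 (linkers), -0.071 (upstream) and 1.05 (reactive glia), with 270 above and 263 below at an unadjusted p, 2107 wholly above and 2120 wholly below. The upstream median was 0.042 with the dimmest 50% left out and with a floor of 1. Scaling to a common median gave 8 below at an unadjusted p. With the 5 arrays as separate samples limma gave 13 calls after adjustment, and 168 above and 78 below before it. A floor of 50 gave 147 calls (282 above and 55 below unadjusted), and no filter gave 170 (304 above and 86 below). Of these 147 and 170 calls, 138 and 162 were probe sets whose normal arrays all held the same value. Among all probe sets tested in these settings, 664 of 6118 and 1689 of 8740 were of that kind. For the remaining moved values the cause was not tested. No test could be made on the 2 arrays of the shared day alone. No paired analysis was possible because the labels match no diabetic array to a normal pool, and the replicate numbers do not mark pairs. The second diabetic array is a technical replicate of the same pool. The number of arrays, with 1 diabetic pool, limits every value.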
